A study of Mus musculus with 16 samples.

Results

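Kidneys were examined for 8 miRNAs that are known from tissues other than kidney: mmu-miR-1a-3p, mmu-miR-133a-3p, mmu-miR-133b-3p and mmu-miR-206-3p of muscle, mmu-miR-122-5p of liver, mmu-miR-124-3p and mmu-miR-9-5p of neurons, and mmu-miR-375-3p of pancreatic islets. They were chosen by name, as miRNAs of other tissues, with earlier results of these data known, and make up 8 of the 1881 mouse miRNAs on the array. The study compared male SAMP1 mice, a senescence-accelerated prone strain with age-dependent renal impairment, with male SAMR1 mice, the resistant strain that ages normally. Total RNA from a piece of kidney cortex was labelled with Cy3 and hybridized to 1-colour arrays, 1 mouse per array. Each strain was sampled at 10 and at 50 weeks of age, with 4 mice in each of the 4 groups, which are called by strain and age (SAMR1-10wk and so on), and the labels name no treatment. The 10-week mice shared 1 slide and the 50-week mice the other, and therefore an effect of age and one of slide cannot be told apart. On both slides row 1 held SAMP1 and row 2 held SAMR1, and strain and slide row cannot be told apart either.

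miRNAs are short RNAs that pair, mainly through a seed near their 5′ end, with messenger RNAs and lower their translation and stability. miR-1 and miR-133 are made in heart and skeletal muscle, where they act in differentiation and growth, and miR-206 is a skeletal muscle relative of miR-1 that shares its seed. miR-122 is the main miRNA of hepatocytes, miR-124 and miR-9 act in neuronal differentiation, and miR-375 regulates insulin secretion and islet cell mass. RNA of a whole piece of tissue does not separate the cells it came from. In it, fewer cells of a type and less RNA per cell cannot be told apart.

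Mature sequences were found in RefSeq (GRCm38.p6) for 3 of the 8. They are shown because their probes pair with only part of the seed, which bears on what each signal can stand for. The seed, bases 2 to 8, is in capitals. The other arm of the miR-9 precursor, mmu-miR-9-3p, is shown as well because it was detected beside miR-9-5p.
mmu-miR-133b-3p: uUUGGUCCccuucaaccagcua
mmu-miR-206-3p: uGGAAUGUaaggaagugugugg
mmu-miR-9-5p: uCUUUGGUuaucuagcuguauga
mmu-miR-9-3p: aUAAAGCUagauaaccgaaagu
Mir206 (chr1:20679055-20679076, plus strand) and Mir133b (chr1:20682834-20682855, plus strand) lie 3757 bases apart, measured between the mature sequences. miR-9-5p comes from 3 genes with the same mature sequence: Mir9-1 at chr3:88215613-88215635, Mir9-3 at chr7:79505279-79505301 and Mir9-2 at chr13:83738821-83738843, all on the plus strand.

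Each miRNA was read by 2 probes with 15 spots each. The longer probe of miR-133b-3p, tagctggttgaaggggacc, pairs with bases 4 to 22 of the miRNA, and the shorter one, tagctggttgaaggggac, with bases 5 to 22. The longer probe of miR-206-3p, ccacacacttccttac, starts at base 7, and the probes of miR-9-5p, tcatacagctagataacca and tcatacagctagataacc, start at bases 5 and 6. None of these probes covered the whole seed. The probes of miR-133a-3p and miR-133b-3p differed in 1 base of the 17 or 18 that they share, and the signals of this pair are therefore uncertain as to which of them they read. The probes of miR-1a-3p and miR-206-3p differed in 4 of 15 or 16 bases.

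The scanner software gave every miRNA a total gene signal, which is an intensity after background subtraction, and called it detected or undetected on each array. Undetected miRNAs were listed at 0.1. Detection covered 352 to 445 miRNAs per array, and the lowest detected signal lay between 0.895 and 1.50. No spot was saturated. Signals were scaled to each array's 90th percentile, which ran from 8.76 to 22.7, with the lowest detected signal of the array as a floor, and expressed as log2. The software computed total gene signals with a default effective feature size of 0.6 on 12 arrays and with its own estimate, 0.759 to 0.770, on the other 4, which were SAMP1-10wk animal 4 and SAMP1-50wk animals 1, 2 and 4. On these 4 arrays the total gene signal stood 1.27 to 1.28 times higher for the same spot signal. Scaling removes this factor, but it is part of the unscaled signals below.

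Of the 8 miRNAs, 2 were detected on all 16 arrays, 3 on some and 3 on none. miR-1a-3p and miR-9-5p were detected in every kidney. miR-133b-3p was detected on 10 arrays, miR-133a-3p on 2 and miR-124-3p on 1. miR-206-3p, miR-122-5p and miR-375-3p were detected in no kidney. Among all 1881 miRNAs, 322 were detected on all arrays, 147 on some and 1412 on none. The 6 miRNAs listed for kidney epithelium were all detected on all arrays, with a summed signal of 2698 to 6902 per array, so that the labelled tissue showed its markers. Of these 6 markers, 2 passed the adjusted p for strain as higher in SAMP1, where 7.35% of the 381 tested miRNAs did. They were miR-192-5p at 0.27 (adjusted p = 0.00619) and miR-194-5p at 0.25 (adjusted p = 0.00213, limma). For the interaction of strain and age 5 of the 6 passed below 0, where 24.9% of the tested miRNAs did. With the 90th percentile taken over the miRNAs detected on all arrays, the share of the tested that passed below 0 was 1.31%. The part of these markers in the results below was not tested.

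**Figure D1:**
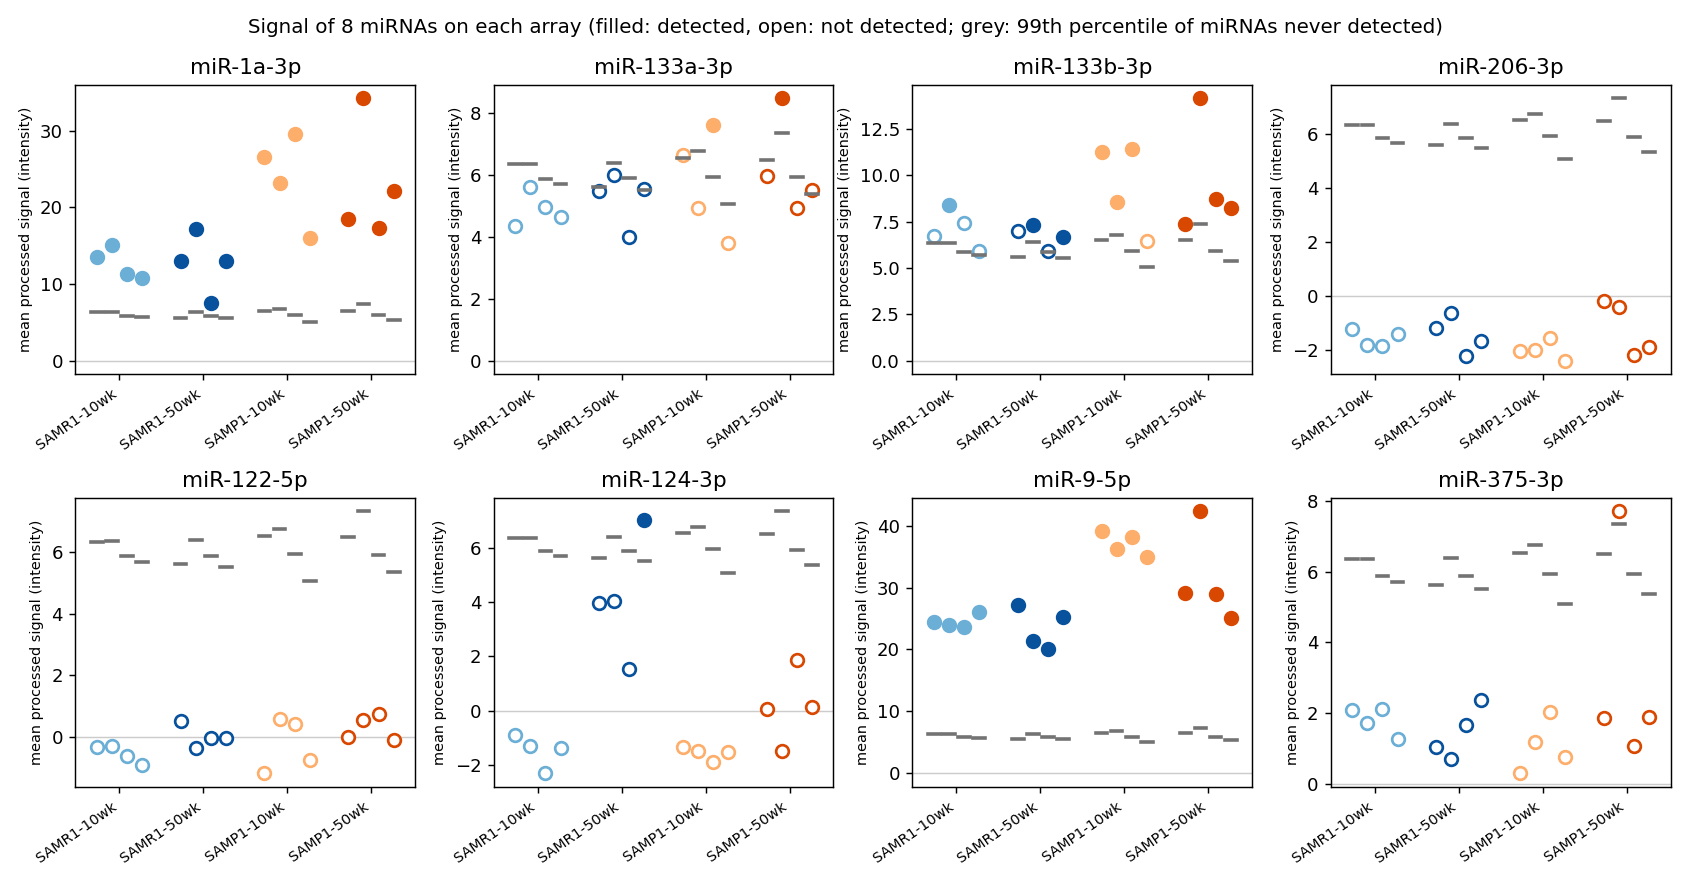
Mean processed signal (background-subtracted intensity over the spots of a miRNA) on each of the 16 arrays by group. Filled points are detected, open points are not detected, and grey bars give the 99th percentile of the 1412 miRNAs detected on no array; miR-1a-3p and miR-9-5p stand above it on all 16 arrays, and miR-206-3p and miR-122-5p lie below it on all 16.

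miR-1a-3p, the muscle miRNA, was higher in SAMP1 kidneys. In SAMR1 its total gene signal was 4.56, 5.36, 4.13 and 3.63 at 10 weeks and 4.89, 6.13, 2.85 and 4.82 at 50 weeks. In SAMP1 it was 9.22, 9.91, 12.5 and 5.60 at 10 weeks and 8.20, 15.8, 8.24 and 8.02 at 50 weeks. The strains overlapped in 1 pair only, since the lowest SAMP1 value of 5.60 lay under the highest SAMR1 value of 6.13. After scaling, the SAMR1 level was -1.25 ± 0.20 at 10 weeks and -1.11 ± 0.38 at 50 weeks, and the SAMP1 level was -0.48 ± 0.43 and -0.80 ± 0.30 (log2, mean ± SD, n = 4). Groups next to each other in order of level overlapped. The strain difference was 0.54 on the log2 scale, a 1.45-fold change (SE 0.16, adjusted p = 0.0216 from limma with Benjamini-Hochberg adjustment over 381 miRNAs). An exact permutation test of 8 against 8 arrays gave p = 0.00528, two-sided.

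The difference of miR-1a-3p was 0.77 at 10 weeks (adjusted p = 0.0719) and 0.31 at 50 weeks (adjusted p = 0.262, limma). The scaled groups did not overlap at 10 weeks, with an exact permutation p of 0.0286, the smallest that 4 against 4 arrays can give. How many of the tested miRNAs also separated there was not counted. The scaled groups overlapped at 50 weeks, with p = 0.229 by the same exact test. Without scaling they did not overlap there (difference 1.09), nor with 1 feature size for all arrays (0.83). Both gave an exact permutation p of 0.0286. Over both ages the median strain difference of all tested miRNAs was 0.45 and 0.28 in those settings. The interaction of strain and age, -0.46, did not pass (adjusted p = 0.297, limma), so that no difference between the ages was shown. Age itself gave -0.09 (adjusted p = 0.762).

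One probe of miR-1a-3p was above background in both strains. It had at least 5 of its 15 spots well above background on every array, with a mean processed signal of 30.2. Before scaling, it read 1.80-fold higher in SAMP1, or 0.85 in log2 (exact permutation p = 0.000311, two-sided, 8 arrays a strain). Part of this is shared, since the median tested miRNA was also 0.28 higher without scaling and with 1 feature size for all arrays. The other probe had no spot well above background in SAMR1, with a mean of 3.93, and at most 2 such spots on a SAMP1 array, with a mean of 7.84, and no fold is given for it.

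miR-133b-3p, which is made from the same gene region as miR-206, was detected more often in SAMP1 without passing a test. Its signals in SAMR1 were 2.26 in animal 4 at 10 weeks and 2.26 and 2.06 in animals 6 and 12 at 50 weeks, and the other 5 kidneys were called not detected. In SAMP1 it read 3.40, 3.25 and 3.54 at 10 weeks, with animal 6 not detected, and 3.12, 5.71, 3.03 and 2.53 at 50 weeks. Before scaling, every detected SAMP1 signal lay above every SAMR1 signal, which leaves out SAMP1-10wk animal 6. The median tested miRNA was then also 0.45 higher in SAMP1 (log2). After scaling the detected values overlapped. SAMP1-50wk animal 4, at -2.51, lay under the detected SAMR1 values, which ran from -2.28 to -2.16. Detection on 7 of 8 SAMP1 and 3 of 8 SAMR1 arrays did not differ past the threshold (Fisher's exact test, p = 0.119, adjusted p = 1 over the 147 miRNAs detected on 1 to 15 arrays). None of the 3 members in that test passed for strain, where 0.680% of the 147 did, and 5.44% at an unadjusted p. None passed for age, where 0.00% did with and without adjustment.

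The scaled strain difference of miR-133b-3p was 0.51 (SE 0.27, adjusted p = 0.157, limma) with undetected values as limits. It entered the test only through SAMP1-50wk, the group that detected it in all 4 mice, so that the filter favoured a higher level in SAMP1 and its p supports nothing. Without animal 6 of SAMP1-10wk, whose value is a limit, the difference was 0.71, and that fit has the same fault. The mean processed signal of miR-133b-3p stood above the 99th percentile of never-detected miRNAs on all 16 arrays, between 5.89 and 14.2. On SAMR1-50wk animal 9 the margin was small, 5.892 against 5.883. Because these miRNAs were picked for never being detected, the comparison cannot show that miR-133b-3p was present where it was called not detected. The longer probe had at most 1 of 15 spots well above background on a SAMR1 array, with a mean of 9.05, and up to 14 on a SAMP1 array, with a mean of 13.6. The shorter one had no such spot on any array, and no fold is given for either.

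miR-133a-3p, whose probes nearly match those of miR-133b-3p, was detected in SAMP1-10wk animal 5 at 2.14 and in SAMP1-50wk animal 2 at 3.33. These were the kidneys with the highest miR-1a-3p signals of their groups, 12.5 and 15.8, and the highest miR-133b-3p signals, 3.54 and 5.71. Across the 16 arrays the scaled level of miR-133b-3p was most like that of miR-1a-3p among 322 candidates (Pearson's r = 0.79, Spearman's rho = 0.81), with 6 of its 16 values at the floor and so not measured. The next were miR-3535 (r = 0.71) and miR-466q (r = 0.63). For miR-1a-3p the 3 closest of 321 candidates were miR-143-3p of smooth muscle (r = 0.78), miR-192-3p (r = 0.72) and miR-194-5p (r = 0.71). These correlations are descriptions over 16 arrays that share slides and group differences, and they carry no p.

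miR-206-3p, the skeletal muscle miRNA, was at background. Its mean processed signal was -1.23, -1.80, -1.83 and -1.41 in SAMR1-10wk, and over all 16 arrays it ran from -2.39 to -0.16. It stood between the 7.30th and the 62.2nd percentile of the miRNAs detected on no array. The 4 other muscle miRNAs of the list (miR-133a-5p, miR-208a-3p, miR-208b-3p and miR-499-5p, the miR-208 and miR-499 family being encoded in myosin genes) were also detected on no array. Of the 4 smooth muscle miRNAs, miR-143-3p and miR-145a-5p were detected on all arrays and their other arms on none. miR-143-3p was 0.22 higher in SAMP1 (adjusted p = 0.0270) and miR-145a-5p was 0.04 higher without passing (adjusted p = 0.546, limma), 1 of 2 against 7.35% of the 381 tested. For age both passed as lower at 50 weeks, miR-143-3p at -0.27 (adjusted p = 0.0160) and miR-145a-5p at -0.32 (adjusted p = 0.000476), against 6.82% of the tested.

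RNA of blood cells moved with the groups as well. The summed signal of the 3 leukocyte miRNAs was 95.7 to 149 on the SAMR1 arrays, 142 to 173 in SAMP1-10wk and 340 to 752 in SAMP1-50wk. That of the 3 erythrocyte miRNAs was 119 to 1664 in SAMR1-10wk, 33.7 to 86.8 in SAMR1-50wk, 60.0 to 709 in SAMP1-10wk and 463 to 2776 in SAMP1-50wk. Of the leukocyte list, 2 of 3 passed the adjusted p for strain, both higher in SAMP1, as 7.35% of the tested miRNAs did. For age 2 of 3 passed as higher at 50 weeks, against 4.72%, and for the interaction 1 of 3 passed above 0, against 1.84%. Of the erythrocyte list both tested miRNAs passed above 0 for the interaction, against the same 1.84%. They were miR-451a at 5.44 (adjusted p = 0.00860) and miR-144-3p at 6.79 (adjusted p = 0.0108, limma). miR-144-3p was detected on 0 of 4 SAMR1-50wk and 2 of 4 SAMP1-10wk arrays, so that limits enter its value and its p. It entered the test through the other 2 groups, which detected it in all 4 mice. The part of blood cells in the muscle miRNA signals was not tested.

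miR-122-5p, the liver miRNA, gave no signal in any kidney. Its mean processed signal ran from -1.19 to 0.73 over the 16 arrays, between the 43.1st and 77.5th percentile of never-detected miRNAs. Neither of its probes had a spot well above background, and miR-122-3p was not detected either. Strain (0.29, adjusted p = 0.591) and age (0.54, adjusted p = 0.420) did not pass on the linear scale (limma over all 1881 miRNAs).

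miR-375-3p of islets was likewise detected in no kidney, with a mean processed signal between 0.30 and 2.38 on 15 arrays. SAMP1-50wk animal 2 stood apart at 7.72, over its array's 99th percentile of 7.35 for never-detected miRNAs, with both probes highest there (5.09 and 10.4). This array was also the brightest, with 445 miRNAs detected. In the islet list miR-7a-5p was detected on all arrays and miR-184-3p on none. The 3 exocrine pancreas miRNAs and the 6 embryonic stem cell miRNAs were detected on no array. Of the 3 miRNAs of retina and hair cells, 1 was detected on all arrays and 2 on some.

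miR-124-3p, the neuronal miRNA, was called detected only in SAMR1-50wk animal 12, at 2.47. Its mean processed signal was -0.88, -1.31, -2.30 and -1.37 in SAMR1-10wk and -1.33, -1.49, -1.89 and -1.53 in SAMP1-10wk. At 50 weeks it was 3.97, 4.04, 1.55 and 7.03 in SAMR1 and 0.05, -1.48, 1.87 and 0.12 in SAMP1. The 50-week arrays thus stood above the 10-week arrays except for SAMP1-50wk animal 2, and no SAMR1-50wk array overlapped SAMR1-10wk. The age difference within SAMR1, 5.61 intensity units, did not pass (adjusted p = 0.0836, limma over 1881 miRNAs). How many of all miRNAs separated likewise was not counted. On the linear scale the age difference was 3.65 intensity units (SE 0.66, adjusted p = 0.0367, limma over 1881 miRNAs). In this setting 0.159% of all miRNAs passed with higher signal at 50 weeks. An exact permutation test gave p = 0.000777, two-sided, 8 arrays an age, and the difference stayed between 2.96 and 4.17 when each array was left out in turn. The linear scale was chosen after the values were seen.

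At 50 weeks miR-124-3p was lower in SAMP1 than in SAMR1 by 4.01 units on the linear scale (-4.01, adjusted p = 0.0443, limma), where 0.319% of all miRNAs passed in that direction. The exact test of these 4 against 4 arrays gave p = 0.0571. The interaction did not pass (-3.92, adjusted p = 0.595). One of its probes, the only one with spots well above background, read 7.55, 8.60, 3.39 and 11.6 in SAMR1-50wk. The highest value of the other on any array was 2.43. Both were higher at 50 weeks, by 5.53 (exact permutation p = 0.00124) and 1.74 (p = 0.00466). On the log2 total gene signal with no filter, where all values but 1 are limits, the age difference was 0.03 (adjusted p = 0.877, limma). miR-124-5p was not detected on any array.

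**Figure D2:**
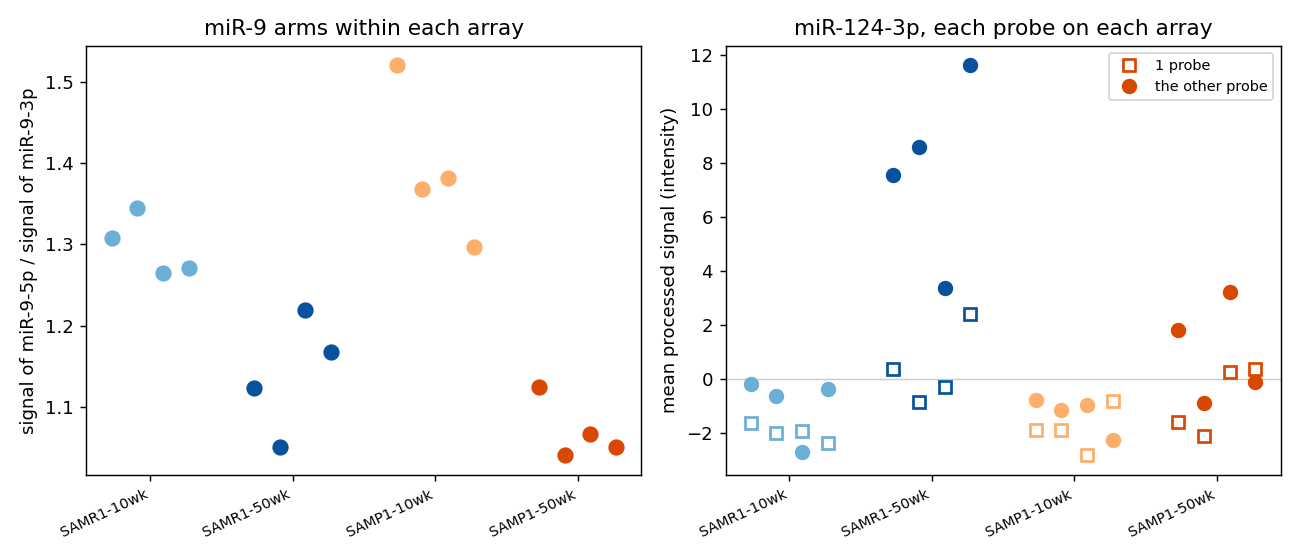
Left, ratio of the total gene signals of miR-9-5p and miR-9-3p within each array by group; right, mean processed signal (intensity) of the 2 miR-124-3p probes on each array. The ratio lies between 1.26 and 1.52 at 10 weeks and between 1.04 and 1.22 at 50 weeks, and 1 probe of miR-124-3p rises to 11.6 in SAMR1-50wk.

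miR-9-5p was detected in every kidney. Its total gene signal in SAMR1 was 10.3, 10.1, 10.1 and 11.1 at 10 weeks and 11.5, 9.04, 8.52 and 10.8 at 50 weeks. In SAMP1 it was 16.6, 19.5, 16.2 and 14.8 at 10 weeks and 15.5, 23.1, 15.4 and 10.7 at 50 weeks. Unscaled, only SAMP1-50wk animal 11, at 10.7, fell among the SAMR1 values. Scaled to the 90th percentile, the SAMR1 level was 0.0014 ± 0.093 at 10 weeks and 0.02 ± 0.15 at 50 weeks, and the SAMP1 level was 0.42 ± 0.05 and -0.10 ± 0.09 (log2, mean ± SD, n = 4). On this scale SAMP1-10wk stood above the other groups and did not overlap any of them. Without scaling, and with 1 feature size for all arrays, it overlapped SAMP1-50wk. The share of the tested miRNAs with such a separation was not counted.

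For miR-9-5p the scaled strain difference was 0.42 at 10 weeks (SE 0.08, adjusted p = 0.00463, limma), where 4.20% of the 381 tested miRNAs passed as higher in SAMP1. At 50 weeks it was -0.13 (adjusted p = 0.178), and its sign turned without scaling, to 0.65, and with 1 feature size, to 0.39. Within SAMP1 the signal fell by 0.53 from 10 to 50 weeks (SE 0.08, adjusted p = 0.000617), as 22.3% of the tested miRNAs did. Without scaling this difference was -0.10 (exact permutation p = 0.686) and with 1 feature size -0.28 (exact p = 0.143), and the ages overlapped in both. Within SAMR1 the difference was 0.02 (adjusted p = 0.940). The interaction of strain and age was -0.55 (SE 0.11, adjusted p = 0.00462). It was shared with many miRNAs, since 24.9% of those tested passed below 0 and the median over all was -0.25. With the 90th percentile taken over the miRNAs detected on all arrays, 1.31% passed below 0 and miR-9-5p did not (-0.31, adjusted p = 0.0764). Without scaling the interaction was -0.03 (adjusted p = 0.949).

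The other arm, miR-9-3p, was the only one detected among the 10 other arms and relatives of the members, and was detected on all arrays. Its signals in SAMR1 were 7.90, 7.54, 7.95 and 8.71 at 10 weeks and 10.2, 8.60, 6.99 and 9.29 at 50 weeks. In SAMP1 they were 10.9, 14.3, 11.7 and 11.5 at 10 weeks and 13.8, 22.2, 14.5 and 10.2 at 50 weeks. Age gave 0.03 for miR-9-3p (adjusted p = 0.806, limma) against -0.25 for miR-9-5p. Because both arms were measured on the same array, their ratio is free of scaling. The ratio of 5p to 3p signal was 1.26 to 1.52 on the 10-week arrays and 1.04 to 1.22 on the 50-week arrays, with no overlap. The log2 ratio differed by -0.28 between the ages, with an exact permutation p of 0.000155, the smallest that 8 against 8 arrays can give, and adjusted p = 0.00161 over 31 arm pairs. Of these pairs, 9.68% passed the adjusted p as lower at 50 weeks.

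Of the 31 pairs of arms detected on all arrays, 6.45% were lower at 50 weeks without overlap, miR-9 and miR-362, and miR-192 was higher without overlap. The arm comparison was chosen after the values were seen. By single probes, the age difference of the miR-9 ratio ran from -0.38 to -0.22 over the 4 pairs of probes, and the ages overlapped in 2 of them. By strain the log2 ratio differed by 0.0054 (exact permutation p = 0.948). The miRNAs whose scaled level was most like miR-9-5p were miR-10a-5p of kidney epithelium (r = 0.90), miR-99a-5p (r = 0.90) and miR-322-5p (r = 0.89), over 16 arrays and 321 candidates, again as a description.

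Of the 11 neuronal miRNAs, 5 were detected on all arrays, miR-124-3p on 1 and 5 on none. The 5 were both arms of miR-9, miR-128-3p, miR-218-5p and miR-219a-5p. Their medians were 0.06 for strain and -0.02 for age, beside -0.07 and -0.03 over all 381 tested miRNAs. For strain 1 of 5 passed the adjusted p, miR-219a-5p at -0.23 (adjusted p = 0.0144), where 23.9% of all tested passed as lower in SAMP1. For age miR-218-5p at -0.31 (adjusted p = 0.000476) passed beside miR-9-5p, 2 of 5 against 6.82% of all as lower at 50 weeks. For the interaction miR-128-3p at -0.39 (adjusted p = 0.0192), miR-9-3p at -0.36 (adjusted p = 0.0475) and miR-9-5p passed, 3 of 5 against 24.9% of all below 0 (limma).

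**Figure D3:**
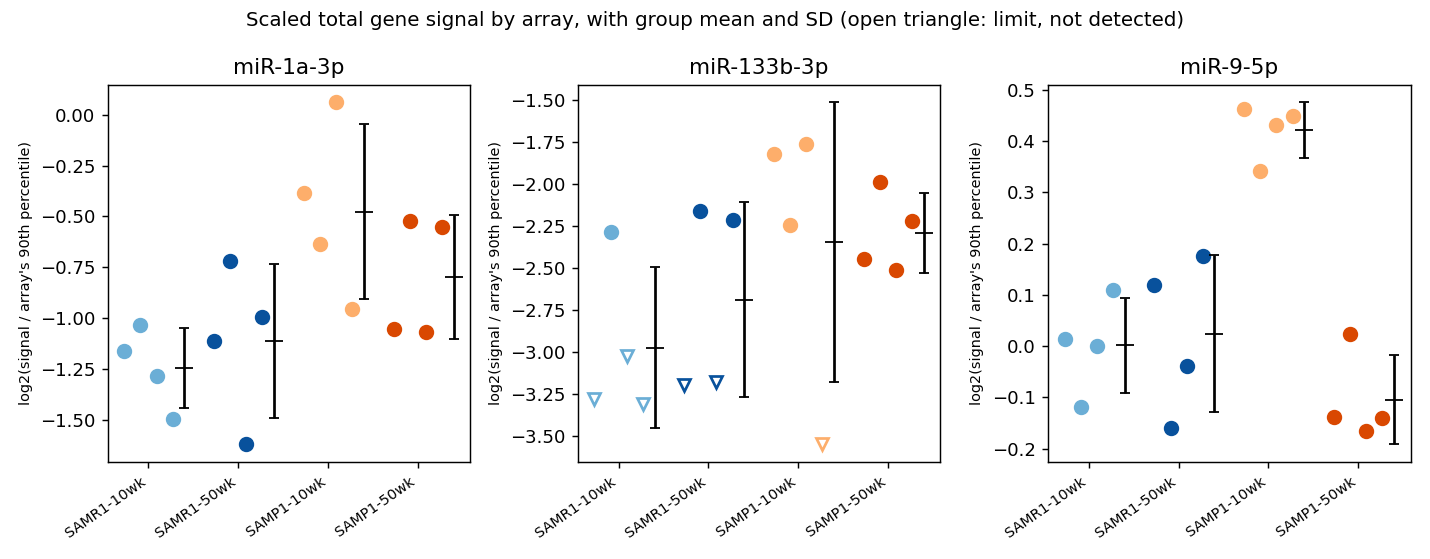
Scaled total gene signal (log2 of signal over the array's 90th percentile) of the 3 tested miRNAs on each array, with the mean and SD of each group of 4 in black. Open triangles are limits of undetected values. On this scale SAMP1-10wk stands apart for miR-9-5p at 0.42 ± 0.05, while without scaling it overlaps SAMP1-50wk. For miR-1a-3p both SAMP1 groups have higher means than the SAMR1 groups.

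Tests of the total gene signal covered the 381 miRNAs that some group detected in all 4 of its mice, and 3 of the 8 members were among them (miR-1a-3p, miR-133b-3p and miR-9-5p). By an adjusted p under 0.05 and a change over 2-fold, 0 of the 3 passed for strain, where 2.10% of the tested miRNAs did, and 0 of 3 for age, where 0.00% did. For the interaction 0 of 3 passed, where 2.62% did (limma, Benjamini-Hochberg). With the p left unadjusted and the fold limit kept, the members' counts were also 0. Of the 381 tested, 8 passed that rule for strain, 2 for age and 14 for the interaction. By the adjusted p alone, miR-1a-3p passed for strain, where 7.35% passed as higher in SAMP1, and miR-9-5p did not, with 0.15 (SE 0.05, adjusted p = 0.0571). By the same rule miR-9-5p passed for age, with -0.25 (SE 0.05, adjusted p = 0.00804), where 6.82% passed as lower at 50 weeks. This call was lost without scaling (-0.09, adjusted p = 0.761) and with 1 feature size (-0.17, adjusted p = 0.385).

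The size of these differences depended on the scaling, while their distance from the median of all tested miRNAs is the same by construction under any scaling by 1 constant an array. Relative to that median, strain gave 0.61 for miR-1a-3p, 0.59 for miR-133b-3p and 0.22 for miR-9-5p, the 90.8th, 90.6th and 78.5th percentile of the 381. For miR-133b-3p this distance was 0.16 (77.7th percentile) with processed signals and 2.33 (97.1st percentile) with the log2 values that the authors deposited. Without scaling, the median itself was 0.45 higher in SAMP1, and the strain differences were 1.06 for miR-1a-3p (adjusted p = 0.00124) and 0.67 for miR-9-5p (adjusted p = 0.00191). That of miR-133b-3p was 1.04, given without a p because of how it entered the test. With 1 feature size for all arrays and no scaling, an alternative added after the values were seen, the median was 0.28 and the differences were 0.89 for miR-1a-3p and 0.49 for miR-9-5p, both past the adjusted p, and 0.86 for miR-133b-3p. Relative to the median, age gave -0.23 and the interaction -0.30 for miR-9-5p.

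**Figure D4:**
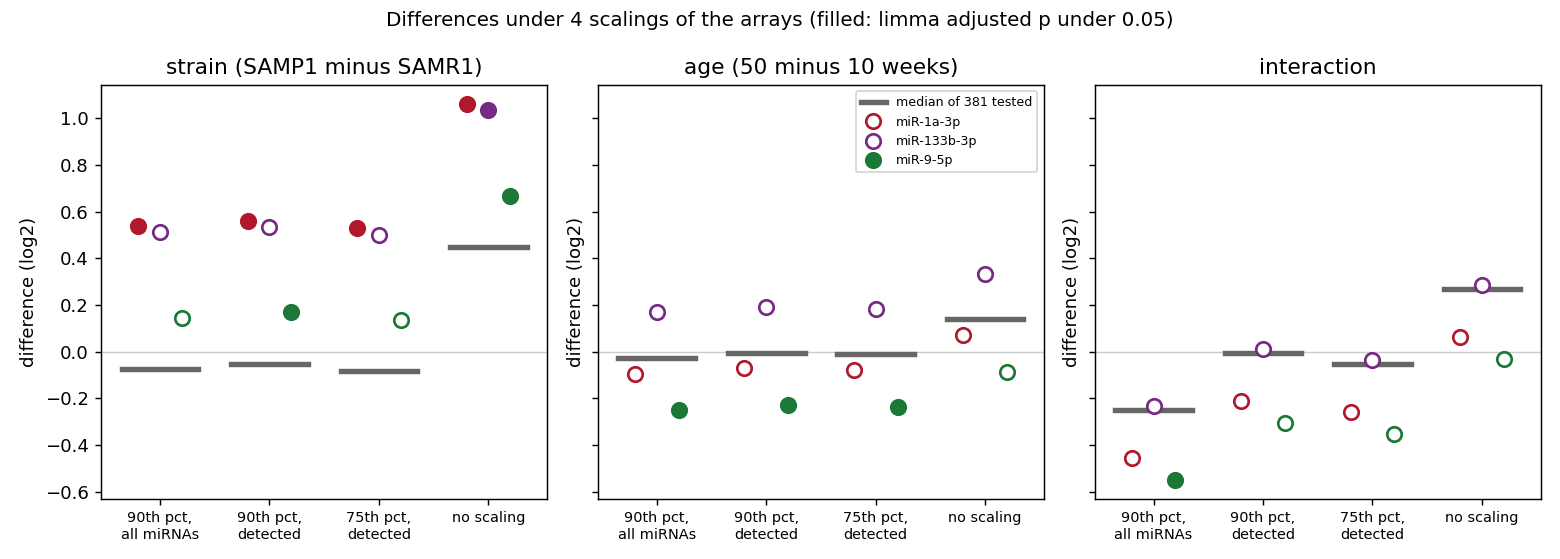
Differences by strain, age and their interaction (log2) of miR-1a-3p, miR-133b-3p and miR-9-5p under 4 scalings of the arrays, with the median of the 381 tested miRNAs as a grey bar. Filled points passed an adjusted p under 0.05 in limma, which for miR-133b-3p supports nothing because it entered the test through its highest group; points and bar move together, as the median for strain goes from -0.07 to 0.45 without scaling.

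The 4 arrays of a group came from separate mice, and p-values measure the spread among them. Precision is limited by 4 mice a group. For strain within each slide, miR-1a-3p gave 0.77 (adjusted p = 0.0638) on the 10-week slide and 0.31 (adjusted p = 0.276) on the 50-week slide when each slide was fitted alone (limma).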

How the data were processed

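The authors extracted the scans with Agilent Feature Extraction 12.0.3.1, per the labels, and deposited its output for each array. The deposited intensity values are not scaled between arrays. That software subtracted background from the total gene signal per miRNA and the processed signal per spot, and the mean and background signals are raw. Detection and well-above-background flags, coded 0 or 1, were also deposited. The authors further deposited log2 values made in GeneSpring GX, scaled to the 90th percentile and set against SAMR1-10wk, which served as an alternative.

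From the files, total gene signals were scaled to each array's 90th percentile, floored at the array's lowest detected signal and log2-transformed. limma 3.58.1 in R 4.3.3 fitted 4 group means on 381 miRNAs, with Benjamini-Hochberg adjustment. A call needed an adjusted p under 0.05 and a change over 2-fold. Single comparisons had two-sided exact permutation tests, and detection had Fisher's exact test (scipy 1.17.1). Processed signals were averaged over spots without outlier flags. Python 3.11.15, pandas 2.3.3 and numpy 2.4.6 read the files and matplotlib 3.10.9 drew the figures. The fit was tested on simulated data.

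The text names the 8 members, the other arms of their precursors, members of lists of tissue miRNAs, and for members detected on at least 4 arrays the 3 most correlated miRNAs. miR-362 and miR-192 were picked from their values. The members and lists were chosen with earlier results of these data known. Alternatives were other background corrections, scalings, filters, floors and tests, leaving out each array, fitting each slide by itself, and a block for animal number.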

Additional observations from a re-analysis of the deposited data

Results flagged for a closer look

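SAMP1-50wk animal 2 was the highest of its group for miR-9-5p, with a scaled log2 level of 0.024 against -0.17 to -0.14 in the other 3 kidneys. The gap to its nearest neighbour took 0.855 of the group's range, over Dixon's limit for 4 samples. The same kidney stood apart for miR-375-3p, with a mean processed signal of 7.72 against 1.08 to 1.89, a gap of 0.878 of the range. It was also the brightest array. Chance flags about 1 in 20 groups, and 32 groups were examined.

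The strain difference of miR-9-5p differed between the ages by -0.55 on the log2 scale, tested as the interaction of strain and age (limma, adjusted p = 0.00462). Of all tested miRNAs, 24.9% passed below 0 as well. The value was -0.03 (adjusted p = 0.949) without scaling, -0.21 (adjusted p = 0.813) with 1 feature size and -0.31 (adjusted p = 0.0764) with the 90th percentile over miRNAs detected on all arrays.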

How the results depend on the processing

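Of 147 alternative values of the 9 differences of miR-1a-3p, miR-133b-3p and miR-9-5p, 110 kept their direction and side of the threshold, 13 lost it, 13 gained it and 11 changed sign. The causes of these changes were not tested. Calls of miR-133b-3p, which entered the test through its highest group, count for nothing. Strain calls with the fold limit rose from 0 to 2 without scaling, 1 of them miR-133b-3p. By adjusted p alone, strain calls (1) became 2 with processed signals, the 90th percentile over miRNAs detected on all arrays, quantile normalization and the methods' analysis of variance with and without adjustment. They became 3 with normexp and without scaling (also with 1 feature size), each with miR-133b-3p, which was lower in SAMP1 with normexp, and 6 with no filter, where floors that differ between arrays enter. They were 0 on the 50-week slide alone. Leaving out 1 array gave 1 to 2, with 2 without SAMR1-50wk animal 2 or 12 (miR-9-5p) or SAMP1-10wk animal 6 (miR-133b-3p). Age calls (1) became 0 without scaling, with 1 feature size and with no filter. Interaction calls (1) became 2 with normexp and 0 under those 3 settings and the 90th or 75th percentile over miRNAs detected on all arrays.

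Signs turned for miR-133b-3p by strain with normexp (-0.049) and for miR-9-5p by strain on the 50-week slide alone (-0.13). By age they turned for miR-1a-3p without scaling (0.073) and for miR-133b-3p with processed signals (-0.10), normexp (-0.038) and quantile normalization (-0.013), and leaving out 1 array gave -0.032 to 0.28. For the interaction they turned without scaling for miR-1a-3p (0.063) and miR-133b-3p (0.29), and for miR-133b-3p with 1 feature size (0.11) and the 90th percentile over miRNAs detected on all arrays (0.011).

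Animals of different groups share only a number (correlations of deviations from -0.43 to 0.21). With the animal number as a replicate block, adjusted-p calls were 0 for strain, age and interaction, strain gave 0.34 for miR-1a-3p (adjusted p = 0.394, limma), and age gave 0.0070 for it.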
